A study of Mus musculus with 4 samples.

Results

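Foxd1 and Foxd2 encode members of the D subfamily of forkhead transcription factors, and they were read from a gene-level table of RNA sequencing as the rows carrying these symbols, 2 of its 55426 rows. The samples were mouse organoids labelled day 6 (the treatment text calls the cells RPCs), from a series on retinal development, differentiated in GMEM medium with 5% KSR and 0.1 µM AGN. The same line gave every library. It is a Mettl3 knockout that carries an Rx:GFP reporter and a doxycycline-inducible, HA-tagged copy of METTL3, the catalytic subunit of the enzyme that writes N6-methyladenosine (m6A) on RNA. The 2 untreated libraries had no doxycycline (Dox), and the 2 Dox libraries were labelled as treated with 2 µg/ml for 6 days. The titles add the letters EV, which the labels leave unexplained. By the genotype label every library carries the inducible gene, but whether the Dox libraries expressed it is not given in the sources used here. An action of the drug itself and one of METTL3 cannot be told apart. Duplicates had separate library preparations, but the labels name no separate cultures, and p-values then measure the spread between these libraries, which may be technical. Libraries of a group correlated at r = 0.990 (untreated) and 0.987 (Dox) over the tested genes, against 0.960 to 0.966 between groups. Mettl3, the gene labelled as knocked out, was at 40.33 and 37.98 FPKM untreated and at 45.20 and 46.37 FPKM with Dox (adjusted p = 0.122 in limma). Its gene-level value does not separate the disrupted locus from the inducible copy, and its exons overlap those of Tox4.

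Forkhead proteins bind DNA through a conserved winged-helix domain. In the embryonic retina Foxd1 is known as a temporal gene that is needed for the ventrotemporal sector, from which uncrossed axons project to the brain, while the homeobox gene Hmx1 marks the nasal side. Outside the eye Foxd1 is also known from hypothalamic progenitors and from the stroma of the kidney, and Foxd2, its close paralogue, from mesenchyme. These organoid values are averages over all cells of a culture and carry no position, so the label of nasal and temporal factors could be checked only through the other genes of that axis.

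The likeness of the 2 genes bears on how far their values are separate measurements. In GENCODE M21 (build mm10) each is a single exon with no exon of another gene over it: Foxd1 spans chr13:98354242-98359305 on the plus strand and Foxd2 spans chr4:114906282-114908873 on the minus strand. Their coding sequences, of 1368 and 1476 bases, were identical at 69.2% of the 1310 aligned positions. The stretch in which they are most alike lies within the coding exon of each, at chr13:98355019-98355108 (plus strand) for Foxd1 and chr4:114908336-114908425 (minus strand) for Foxd2. It is printed here 5′ to 3′ because it is the place where a short read could most easily be assigned to the wrong gene, and capitals mark the 3 bases of 90 that differ.
Foxd1: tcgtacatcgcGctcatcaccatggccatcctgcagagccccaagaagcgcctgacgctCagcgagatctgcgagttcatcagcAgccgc
Foxd2: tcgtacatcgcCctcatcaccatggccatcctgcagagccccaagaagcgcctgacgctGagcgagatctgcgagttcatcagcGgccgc
The longest run of identical coding bases was 47, and the closest window of 150 bases, the read length in the labels, had 141 identical bases. Foxd3 was about as like Foxd1, at 68.8% of aligned positions and with 141 identical bases in its closest window. For Foxd4 that window had 134.

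Foxd1 (ENSMUSG00000078302) was lower with Dox. Its level without Dox was 8.06 FPKM in replicate 1 and 6.77 FPKM in replicate 2, and under Dox it was 1.12 and 1.31 FPKM. FPKM are fragments scaled to the length of the transcript and to the mapped fragments of the library. Both Dox libraries lay far below both untreated ones, and the gap between the groups was several times the difference within either. The means were 7.42 ± 0.912 and 1.22 ± 0.134 FPKM (SD, n = 2 each), a 6.10-fold lower level with Dox. On the log2(FPKM + 1) scale, which understates changes of low genes, the fold change was -1.92 (SE 0.131, adjusted p = 8.86e-04 in limma over the 13931 genes tested). Of all genes tested, 4.87% were lower with Dox by the same threshold of 0.05, and 2.28% had a log2 fold change of -1 or lower, whatever their p. Counted from the lowest, Foxd1 had the fold change of rank 89. The exact two-sided permutation p was 0.333, the smallest that 2 libraries against 2 allow.

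Depth did not limit this value. From the steps in which low values move, the libraries held an estimated 31500000 to 35000000 fragments. With the 5064-base transcript, Foxd1 then rested on about 1260 and 1143 fragments without Dox and about 170 and 207 with it. The 95% Poisson interval, which covers counting error only, ran from 0.958 to 1.30 FPKM in Dox replicate 1 and from 6.38 to 7.17 FPKM in untreated replicate 2. Since these are bulk samples, fewer cells of a type and less RNA per cell cannot be told apart, here and below.

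Foxd2 (ENSMUSG00000055210) was a low gene in every library. Its values were 0.76 and 0.87 FPKM untreated and 0.33 and 0.32 FPKM with Dox. The groups did not overlap, and the Dox values were nearly the same. Among the 2790 genes with a mean from 0.3 to below 1 FPKM, 26.5% also had both Dox libraries below both untreated libraries. The same held for 26.9% of the tested genes, Foxd1 among them. The means were 0.815 ± 0.0778 and 0.325 ± 0.00707 FPKM (SD, n = 2 each), 2.51-fold lower with Dox. With a mean of 0.57 FPKM over the 4 libraries Foxd2 did not reach the minimum of 1 FPKM set for the test, so 1 of the 2 genes passed that filter. Its log2 fold change was -0.45. When all 27532 genes with any value were fitted, the unadjusted p was 0.00327 and the adjusted p 0.0770 in limma, so it did not pass the threshold. In that fit Foxd1 still passed (adjusted p = 0.0265), and 1.49% of genes were called lower. Foxd2 rested on about 58 and 72 fragments untreated and 24 and 25 with Dox, and the 95% Poisson intervals of 0.577 to 0.982 FPKM in untreated replicate 1 and 0.211 to 0.491 FPKM in Dox replicate 1 did not meet.

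**Figure D1:**
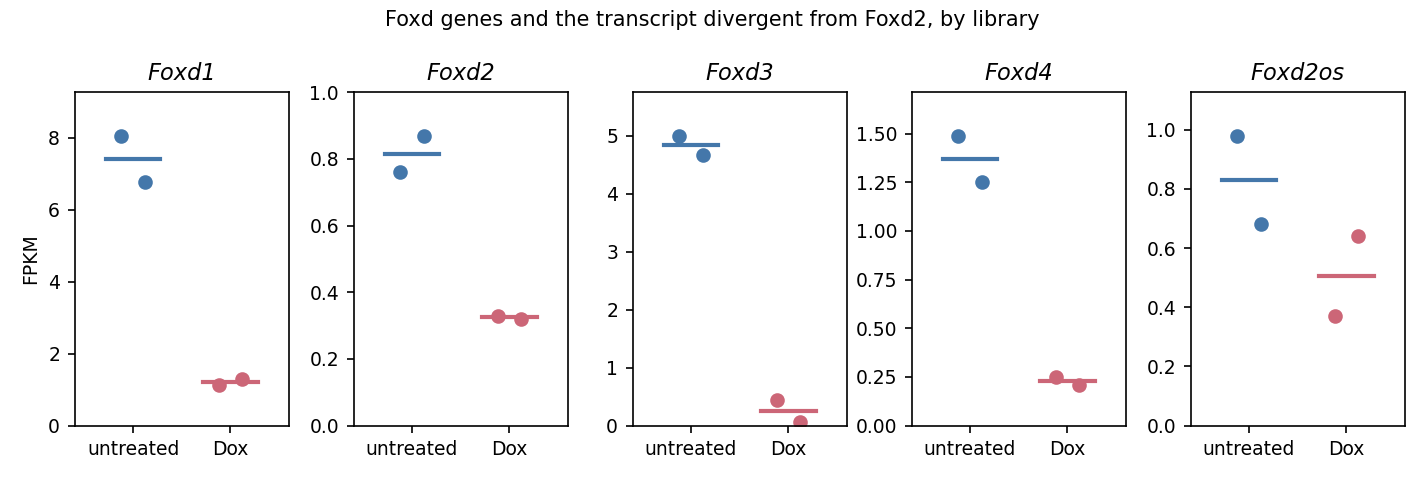
FPKM (vertical axes, each from 0 and on its own scale) of the 4 Foxd genes and of Foxd2os, the transcript that starts opposite Foxd2, in untreated (blue) and Dox (red) libraries; each point is a library and each bar the mean of 2. Foxd1 goes from 8.06 and 6.77 FPKM to 1.12 and 1.31 FPKM, and in all 5 panels both red points lie below both blue points.

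The members stood at different levels, and the difference between them narrowed with Dox. FPKM is scaled to length, so the levels can be compared between the genes. Foxd1 was 10.6-fold and 7.78-fold above Foxd2 in the untreated libraries, and 3.39-fold and 4.09-fold above it in the Dox libraries. On the log2(FPKM + 1) scale the fold change of Foxd1 was lower than that of Foxd2 by 1.47 (log2 difference -1.47). Both Dox libraries had a lower ratio than both untreated ones, but the exact two-sided permutation p of this difference was 0.333, again the smallest possible.

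The other genes of the subfamily had lower values with Dox as well. Foxd3, a gene of neural crest and pluripotent cells, was at 5.00 and 4.66 FPKM untreated and at 0.45 and 0.07 FPKM with Dox. Its log2 fold change was -2.23 (adjusted p = 0.00162 in limma), and it reached the filter only through its untreated libraries. Foxd4, known from early neuroectoderm, was at 1.49 and 1.25 FPKM untreated and at 0.25 and 0.21 FPKM with Dox. It was under the filter, with an adjusted p of 0.0386 in the limma fit of all 27532 genes. Foxd1 was the highest of the 4 in every library. Foxd2os, a noncoding RNA, starts 384 bases from Foxd2 on the opposite strand. It was at 0.98 and 0.68 FPKM untreated and at 0.37 and 0.64 FPKM with Dox, values that nearly touch between the groups (adjusted p = 0.452 in the same fit).

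Because Foxd1 and Foxd2 had lower values in the same libraries, the 250 bases before the RefSeq start of each (GRCm38.p6) are given to let their promoters be compared. The stretches are chr13:98353995-98354244 on the plus strand and chr4:114908899-114909148 on the minus strand, 5′ to 3′, with capitals for any match to the motifs searched on both strands. The Foxd2 stretch lies upstream of the GENCODE exon, while the last 3 bases of the Foxd1 stretch lie inside it, since GENCODE starts that exon at 98354242.
Foxd1 promoter: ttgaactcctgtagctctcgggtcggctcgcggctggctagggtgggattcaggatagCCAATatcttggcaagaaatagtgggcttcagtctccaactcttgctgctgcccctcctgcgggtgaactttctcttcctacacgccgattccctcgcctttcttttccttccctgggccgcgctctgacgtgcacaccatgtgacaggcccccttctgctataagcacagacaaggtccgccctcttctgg
Foxd2 promoter: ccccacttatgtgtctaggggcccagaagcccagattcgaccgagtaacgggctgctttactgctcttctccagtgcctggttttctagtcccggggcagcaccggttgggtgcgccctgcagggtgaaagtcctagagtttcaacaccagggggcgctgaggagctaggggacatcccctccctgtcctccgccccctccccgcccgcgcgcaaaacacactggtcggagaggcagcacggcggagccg
The motifs were TATAAA (the TATA box), CCAAT (the CCAAT box), TGTTTAC (a forkhead core) and ACCACCC (a core of the site for GLI factors). In all 32851 promoter stretches of this length they occur in 12.4%, 33.8%, 3.17% and 3.92%. Foxd1 had 1 match, to CCAAT, and Foxd2 had none. GC made up 57.2% of the Foxd1 stretch and 64.4% of the Foxd2 stretch, against a median of 52.4% over all promoters.

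The forkhead family as a whole did not share one direction. The table has 44 forkhead genes, of which 19 reached the filter, with 3 lower and 3 higher past the threshold and 13 not called, where 4.87% of all tested genes were lower and 4.44% higher. Of the 19 fold changes, 10 were positive and 9 negative. The median log2 fold change of the 19 was 0.03, beside a median of -0.0042 over all tested genes, and it fell below 0 when untreated replicate 2 (-0.072) or Dox replicate 2 (-0.069) was left out. The lower genes were Foxd1, Foxd3 and Foxb1. Foxb1, known from the mammillary hypothalamus and the caudal neural tube, was at 3.57 and 3.14 FPKM untreated and at 0.06 and 0.13 FPKM with Dox (log2 fold change -1.99, adjusted p = 9.14e-04 in limma). Foxp1, a widely expressed factor, rose from 7.01 and 6.79 FPKM to 22.21 and 25.45 FPKM (log2 fold change 1.65, adjusted p = 5.54e-04 in limma). Foxi3, known from cranial placodes and ectoderm, rose from 0.13 and 0 FPKM to 2.34 and 2.67 FPKM (adjusted p = 0.00199 in limma). Foxd3 and Foxb1 reached the filter only through the untreated libraries and Foxi3 only through the Dox libraries, so these genes had to differ and the counts of 3 support nothing further. Exons of Foxb1, Foxp1 and Foxd3 overlap those of other annotated genes, and whether counting used strand is not given in the sources used here. By mean level Foxd1 ranked 9 of the 44 untreated and 17 with Dox, while Foxd2 ranked 20 and 21.

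**Figure D2:**
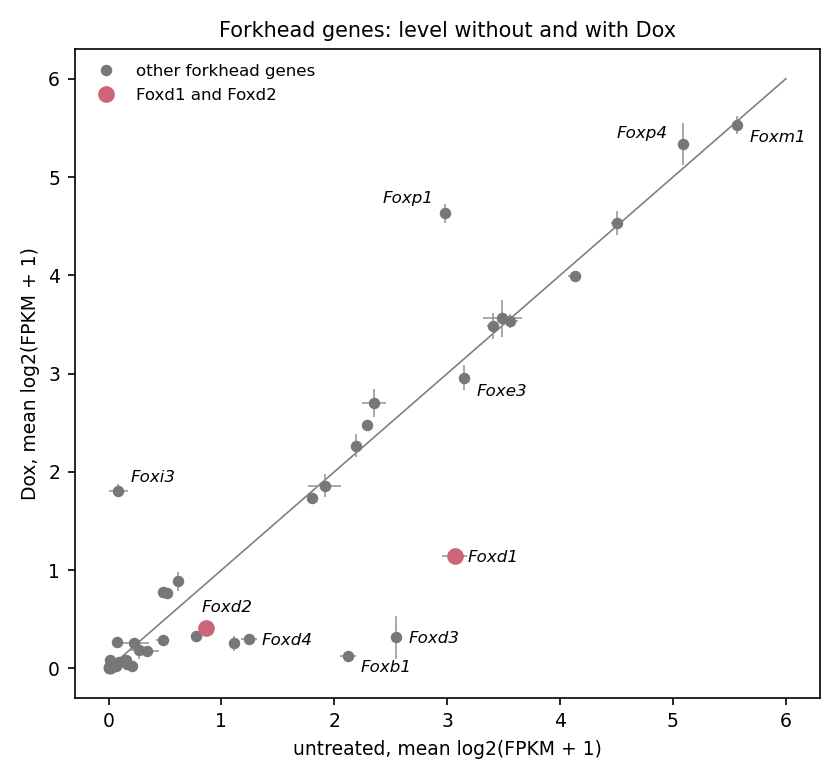
Mean log2(FPKM + 1) of 43 of the 44 forkhead genes without Dox (horizontal) and with Dox (vertical); lines through points span the 2 libraries of a group and the diagonal marks equal levels. Foxd1 and Foxd2 (red) lie below the diagonal with Foxd3, Foxd4 and Foxb1, Foxp1 and Foxi3 lie above it, and most other forkhead genes lie near it.

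The genes of the nasal and temporal axis did not move as one block. The list, 8 temporal or ventrotemporal and 7 nasal genes, had 11 members above the filter. Of the 5 temporal genes tested, Foxd1 and Boc were lower, Zic2 was higher and Ephb1 and Epha5 were not called. Of the 6 nasal genes tested, 5 were higher and 1 was lower. Of these 5, 2 reached the filter only through the Dox libraries, Hmx1 among them, so they had to differ. Over all genes tested, 4.44% were called higher. Foxd2, a temporal entry, was under the filter. The median log2 fold change was -0.40 on the temporal side, with Foxd1 in it, and 0.59 over the 11 genes. On the nasal side it was 1.90, with the 2 genes that had to differ in it.

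On the nasal side Hmx1 was at 0.13 and 0.09 FPKM untreated and at 42.07 and 52.08 FPKM with Dox (log2 fold change 5.43). Fgf15, an FGF ligand of early retinal progenitors, was at 1.40 and 1.18 FPKM untreated and at 19.13 and 20.06 FPKM with Dox (log2 fold change 3.17, adjusted p = 1.03e-04 in limma). These genes were low where Foxd1 was high. Fgf8, an FGF ligand linked to nasal identity, rose by less, from 3.16 and 2.99 FPKM to 6.06 and 5.92 FPKM (adjusted p = 0.00904 in limma). The ephrin ligands, which label nasal axons for their targets, went opposite ways: Efna5 rose by 0.59 on the log2 scale (adjusted p = 0.0290 in limma) and Efna2 fell by 0.47 on the log2 scale (adjusted p = 0.0282 in limma). Both ephrin calls were lost after rescaling to a common sum, and those of Fgf8, Efna5 and Efna2 in each fit that left out 1 library. Fgf3 was between 0.06 and 0.09 FPKM in all libraries.

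On the temporal side Boc, a hedgehog co-receptor that is also found in uncrossed ganglion cells, fell from 12.44 and 12.02 FPKM to 4.94 and 5.24 FPKM (log2 fold change -1.12, adjusted p = 0.00161 in limma). Zic2, the transcription factor that sets the uncrossed path of these cells and is also widespread in the early forebrain, was at 43.64 and 38.13 FPKM untreated and at 61.24 and 78.72 FPKM with Dox. That is a direction opposite to that of Foxd1 (log2 fold change 0.75, adjusted p = 0.0275 in limma), and the call was lost when untreated replicate 1 (adjusted p = 0.0771), untreated replicate 2 (0.147) or Dox replicate 2 (0.104) was left out of the limma fit. Ephb1, the guidance receptor of uncrossed axons, was at 3.02 and 2.84 FPKM untreated and at 1.77 and 2.22 FPKM with Dox (adjusted p = 0.147 in limma). Epha5, a receptor of the ephrin-A ligands, was at 0.90 and 1.11 FPKM untreated and at 1.63 and 1.97 FPKM with Dox (adjusted p = 0.113 in limma). Epha6 did not exceed 0.03 FPKM and Slc6a4 did not exceed 0.15 FPKM, so neither could be compared.

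**Figure D3:**
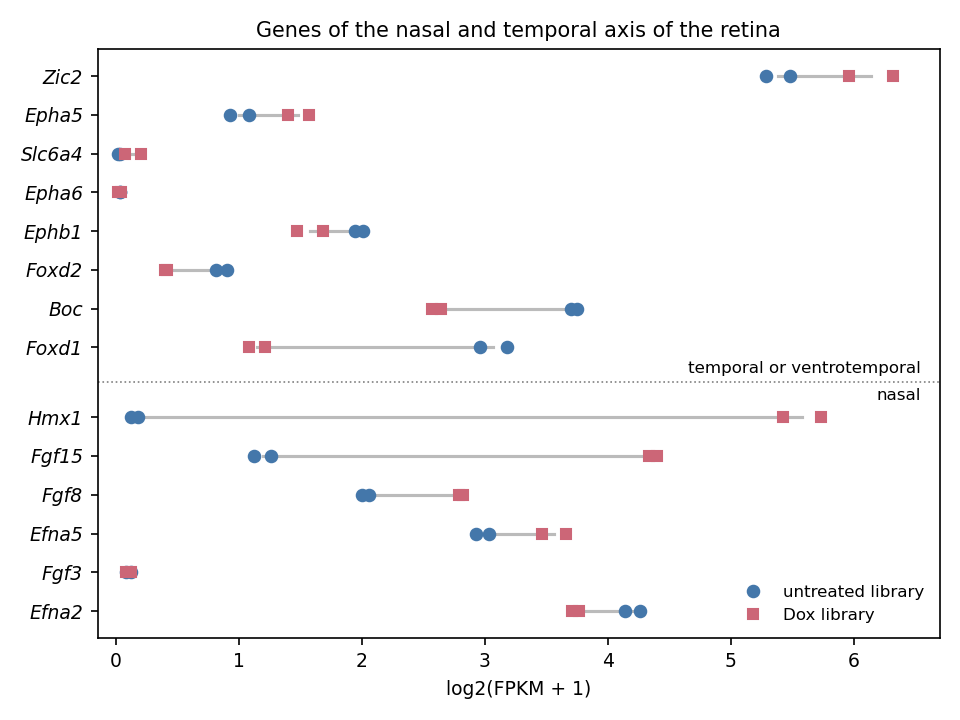
log2(FPKM + 1) in each library for 14 of the 15 genes of the nasal and temporal list; circles are untreated and squares Dox libraries, and grey lines join the group means. Foxd1, Boc, Foxd2 and Ephb1 have their squares to the left, Zic2 and Epha5 to the right, and Hmx1 and Fgf15 show the longest lines to the right.

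Hedgehog signalling from the ventral midline is known to act upstream of ventral forebrain and optic genes, Foxd1 among them. The ligand Shh was at most 0.06 FPKM in any library. Of 14 pathway genes 8 reached the filter, with 3 lower and 2 higher past the threshold, where 4.87% of all tested genes were lower and 4.44% higher. The median log2 fold change of the 8 was 0.03, beside -0.0042 over all tested genes. Ptch1, the receptor and a transcriptional readout of the pathway, fell from 9.55 and 8.91 FPKM to 4.85 and 5.35 FPKM (adjusted p = 0.00990 in limma), a call lost in each fit without 1 library. Gli3, mainly a repressor of the pathway, fell from 54.29 and 49.00 FPKM to 21.26 and 24.22 FPKM (adjusted p = 0.00166 in limma). The co-receptor Cdon rose from 14.44 and 13.07 FPKM to 35.18 and 42.76 FPKM (adjusted p = 0.00151 in limma). Gas1, another co-receptor, had a log2 fold change of 0.75, and its call was lost in both fits without 1 untreated library. Gli1, the other common readout, was under the filter at 1.08 and 1.22 FPKM untreated and 0.54 and 0.63 FPKM with Dox.

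The genes of the other retinal axis, dorsal to ventral, were mostly higher. Of 11 tested, 8 were higher and 2 lower, where 4.44% of all tested genes were higher and 4.87% lower. The median log2 fold change of the 11 was 2.91, beside -0.0042 over all tested genes. Of the 8 higher ones, 6 reached the filter only through the Dox libraries, so they had to differ. The highest were the dorsal factors Tbx2 (5.89) and Tbx3 (4.88) and the ventral and optic stalk factor Pax2 (4.43), and the lower ones were Ephb3 (-1.08) and Efnb1 (-1.02). Tbx2 was at 0.12 and 0.20 FPKM untreated and at 59.09 and 78.13 FPKM with Dox, and Pax2 at 0.22 and 0.20 against 20.56 and 30.37 FPKM. Of the 7 dorsal genes tested, 6 were higher and 1 was lower. Of the 4 ventral genes tested, 2 were higher, 1 was lower and 1 was not called. Both higher ventral genes reached the filter only through the Dox libraries, so the ventral side gives no separate result. The call of Ephb3 was lost without Dox replicate 1 and without Dox replicate 2.

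The labelled tissue was checked against eye-field genes, of which 6 of 8 were higher and 1 lower with Dox. Of these 6, 4 reached the filter only through the Dox libraries. Among all tested genes 4.44% were higher and 4.87% lower. Rax, the gene behind the reporter's name, was at 1.12 and 0.82 FPKM untreated and at 201.14 and 227.98 FPKM with Dox. Six6, which is nearly limited to eye and hypothalamus, was at 0.01 FPKM in both untreated libraries and at 79.22 and 92.44 FPKM with Dox. Six6 was thus near 0 without Dox. The higher Foxd1 and Foxd2 values came from libraries with little message of Rax and Six6, and the lower ones from libraries rich in them. Otx2, shared by eye field and forebrain, was the 1 lower gene of the list (log2 fold change -0.36, adjusted p = 0.0254 in limma). Its call was lost in each fit without 1 library (adjusted p from 0.0804 to 0.195 in limma), with no filter, without the variance trend and with the replicate block.

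The neural crest, telencephalon, diencephalon and hypothalamic marker sums were lower with Dox, like Foxd1 and Foxd2, while the lens and endoderm sums were not. All 8 neural crest markers, Foxd3 among them, were tested and 6 were lower, where 4.87% of all tested genes were lower. Of these 6, 4 reached the filter only through the untreated libraries, so they had to differ. The other 2 were not called and had positive log2 fold changes. The summed level of the 8 was 43.8 to 45.0 FPKM untreated and 12.7 to 14.0 FPKM with Dox. Sox10 fell from 12.79 and 13.35 FPKM to 0.82 and 0.43 FPKM, and Tfap2b from 8.84 and 7.96 FPKM to 0.85 and 0.59 FPKM. The telencephalon list summed to 237 to 247 FPKM untreated and 42.1 to 50.4 FPKM with Dox, with 4 of 5 tested genes lower. Of these 4, 1 reached the filter only through the untreated libraries. The Dox mean was the lower one in 8 of the 10 listed genes. The list does not hold every gene of this tissue, so its sum does not show that all of them were lower. For the diencephalon list the sums were 104.1 to 117 and 23.9 to 24.1 FPKM, with 7 of 8 lower. Only the untreated libraries brought 4 of these 7 past the filter. The hypothalamic list, for a tissue in which Foxd1 is known, summed to 40.3 to 45.8 and 21.4 to 22.9 FPKM. Of its 3 tested genes 2 were lower, Dbx1 (log2 fold change -2.70) and Foxb1 (-1.99), and these 2 made up most of the difference. Mean Dbx1 was 17.2 FPKM untreated and 1.8 FPKM with Dox. Foxb1 reached the filter only through the untreated libraries, so it had to differ. Fezf1 stayed between 19.57 and 22.07 FPKM and was not called. The defining markers Nkx2-1, Nkx2-4 and Otp were at or below 0.1 FPKM in every library. Lens and surface markers summed to 18.6 to 22.1 FPKM over all 4 libraries, and endoderm markers to 0.65 to 1.04 FPKM. The part of these cell types in the Foxd1 and Foxd2 results was not tested.

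Mesenchyme markers, from a tissue where both genes are also known, did not move as a block. Of 7 tested genes in the list of 17, 3 were higher and none was lower, where 4.44% of all tested genes were higher and 4.87% lower. The list summed to 26.2 to 28.5 FPKM untreated and 82.0 to 83.6 FPKM with Dox. Prrx2, which rose from 9.82 and 9.80 FPKM to 52.32 and 57.65 FPKM, and Col1a2, a collagen chain that rose from 2.46 and 1.93 to 12.21 and 12.02 FPKM, made up the difference. The other 15, a split chosen after the values were seen, summed to 16.2 and 14.5 FPKM untreated and to 17.5 and 13.9 FPKM with Dox. In 9 of the 17 the Dox mean was the lower one, among them Col3a1, at 3.71 and 3.04 FPKM untreated and at 3.27 and 2.36 FPKM with Dox (adjusted p = 0.520 in limma). The stromal markers Tcf21, Tbx18, Meox1 and Foxc2 were at or below 0.1 FPKM throughout. The part of mesenchyme in the results was likewise not tested.

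**Figure D4:**
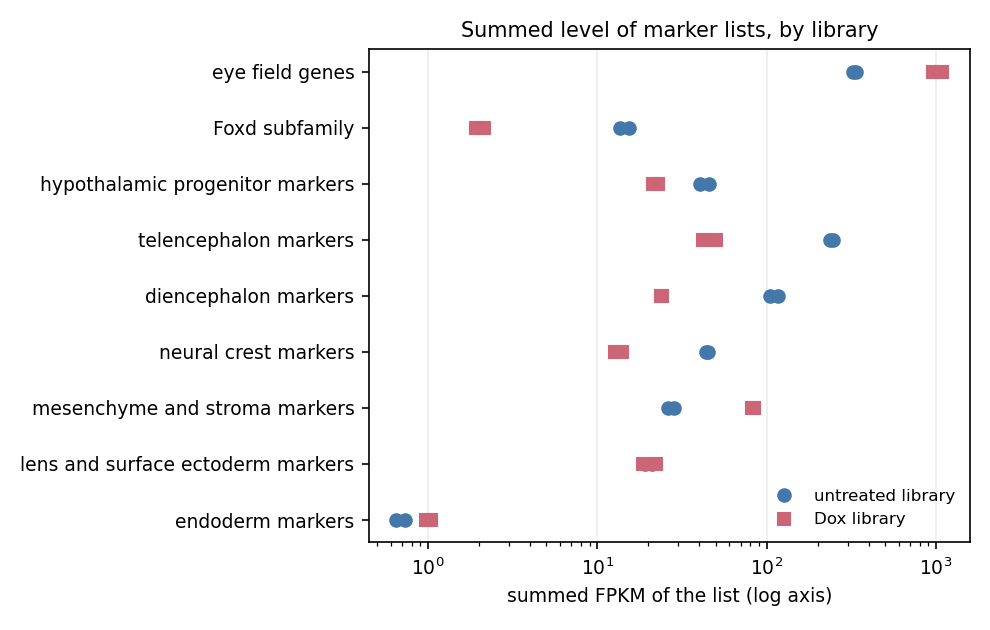
Summed FPKM (log axis) of 9 gene lists in each library; circles are untreated and squares Dox libraries. The Foxd subfamily, hypothalamic, telencephalon, diencephalon and neural crest sums are lower with Dox, while the eye-field, mesenchyme (through Prrx2 and Col1a2) and endoderm sums are higher and the lens sums overlap.

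Genes with a pattern like that of Foxd1 were sought by distance between log2(FPKM + 1) profiles over the 4 libraries, each centred on its own mean. The nearest was Foxb1, another forkhead gene, at a distance of 0.0908. Next came Cfap77 (0.112), a protein of the ciliary axoneme, Stmn2 (0.124), a microtubule protein of young neurons, Mfsd2a (0.125), a lipid transporter, and Bmp6 (0.158), a ligand of the BMP family. All 5 were lower with Dox in limma, with log2 fold changes from -1.99 to -1.87, which the choice by likeness fixes. Over 4 libraries in 2 groups such a distance holds little beyond the size of the change. Foxd2 was under the filter and has no such list.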

How the data were processed

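Poly(A)-selected RNA was sequenced as paired reads from 4 libraries, 2 untreated and 2 Dox, grouped by their treatment label. The authors deposited FPKM values, 1 column per library, rounded to 2 decimals. STAR, Cuffdiff and build mm10 are named in the submitters' processing notes, and versions, annotation and strand setting are not given in the sources used here. On the log2(FPKM + 1) scale, 13931 genes whose mean reached 1 FPKM were fitted with limma 3.58.1 (R 4.3.3; eBayes with trend, prior 3.5 degrees of freedom), two-sided, with Benjamini-Hochberg adjustment and a threshold of 0.05. The fit and the depth estimate were tested on simulated data. In 1 simulated set the fit recovered 71% of 2-fold and 95% of 4-fold changes. Unchanged genes made up 7.26% of its calls, above the 0.05 threshold. The fitted depth was off by at most 2.1%. Depth was fitted to the low values of single-transcript genes (Python 3.11.15). Between 89.6% and 91.1% of them came out within 0.1 of a whole fragment. Positions, lengths and coding sequence came from GENCODE M21 and promoters from RefSeq (GRCm38.p6). In both, Foxd1 and Foxd2 were matched.

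Foxd1, Foxd2, the gene lists and the tests were chosen with earlier results of these data known. Named genes were the Foxd genes, Foxd2os, up to 3 called genes in each direction per list, the nasal and temporal list, the 5 nearest patterns, chromosome neighbours, and up to 3 abundant genes per cell type list. Some genes that the rule picks are not reported here, and stay in all tests, counts, sums and medians. Alternatives were other pseudocounts, filters, scalings and variance models, the replicate number as a block, and each library left out.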

Additional observations from a re-analysis of the deposited data

How the results depend on the processing

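Foxd1 stayed lower with Dox and past the threshold under every alternative in which it was fitted, with adjusted p from 2.36e-04 to 0.0265 in limma. It has no value at a minimum of 5 FPKM, since its mean was 4.32 FPKM. Its log2 fold change was between -2.03 and -1.81 without 1 library. Foxd2 depended on the pseudocount, with a log2 fold change of -1.10 at 0.1 and -0.13 at 5, and lay between -0.50 and -0.41 without 1 library. The difference between Foxd1 and Foxd2 was -0.87 at a pseudocount of 5. The median of the nasal and temporal list was 0.77 at a pseudocount of 0.1 and 0.42 at 5. That of the forkhead family lay between -0.072 and 0.15 without 1 library. Calls over all genes fell from 619 higher and 678 lower to 336 and 409 with no filter, and to 408 and 413 at a minimum of 5 FPKM. Without 1 library, where the lone sample is assumed to vary like the other group, they were 262 to 320 higher and 331 to 377 lower. Of 39 genes picked by the naming rule and called beside Foxd1, 10 lost the call with no filter (among them Zic2, Fgf8, Efna5, Efna2, Ptch1, Gas1, Ephb3, Efnb1 and Otx2) and 7 or 8 without 1 library. None of the 39 changed sign in any alternative that tested it (30 of them at a minimum of 5 FPKM). The cause was not tested. In the fit with a replicate block, Foxd1 had an adjusted p of 4.89e-04 in limma, 532 genes were higher and 602 lower, and the calls of Efna2 and Otx2 were lost. Same-numbered libraries did not deviate together (r = -0.0435 over 13931 genes), so the number was not taken as a pairing. Among chromosome neighbours that were not called, Cmpk1 changed sign without untreated replicate 2 (range -0.12 to 0.0060 without 1 library) and Btf3 without Dox replicate 1 (range -0.020 to 0.11). No scaling moved the median of all tested genes by over 0.1. At the fitted depth, 3 fragments correspond to 0.0178 to 0.0197 FPKM for Foxd1 and 0.0364 to 0.0405 FPKM for Foxd2.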

Other observations

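Of the 3 annotated genes on either side of Foxd1 and of Foxd2 on their chromosomes, 5 reached the filter and none was called. With 4.87% of all tested genes lower and 4.44% higher, none among 5 is near the general share and says little about these loci. Beside Foxd1, Btf3, a factor of nascent chain handling, was at 715.18 and 747.19 FPKM untreated and at 790.11 and 720.86 FPKM with Dox (adjusted p = 0.810 in limma), 37236 bases away. The noncoding gene Gm9828, 29827 bases away, was between 3.01 and 3.57 FPKM in all libraries. Its exons overlap those of Btf3. Beside Foxd2 lies a further forkhead gene, Foxe3, a lens factor, 16274 bases away on the same strand. Foxe3 was at 7.83 and 7.94 FPKM untreated and at 7.47 and 6.13 FPKM with Dox (log2 fold change -0.19, adjusted p = 0.387 in limma). It stood above Foxd2 in every library. Cmpk1, 50463 bases away, was between 16.76 and 19.11 FPKM.

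As METTL3 is the enzyme under study, GGACT, the DNA form of a common m6A sequence context, was counted on the transcript strand, a choice made after the values were seen. Foxd1 had 4 matches in 5064 bases, 1 of them in its coding part, and Foxd2 had 1 match in 2592 bases, which was coding. These are 0.790 and 0.386 matches per kilobase, against a median of 1.01 over the transcripts of 13918 tested genes. A match is a stretch of letters and not a measured m6A site.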
